A study of Homo sapiens with 12 samples.

Results

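The G1 cyclins, CDK inhibitors and RB1 examined here are 10 genes, CDKN1A, CDKN1B, CDKN1C, CDKN2B, CDKN2C, CCND1, CCND3, CCNE1, CCNE2 and RB1, chosen by name from the 60106 genes in the deposited count tables. Each of the 10 had enough counts to be tested in both cell lines. RNA was sequenced from 12 libraries of PC3 and VCaP, a pair of established human prostate cancer lines, after siRNA against FOXA1 (siFOXA1) or a non-targeting control siRNA (NSI), with 3 libraries per line and siRNA. PC3 cells in RPMI-1640 received 20 nM siRNA and were sequenced from polyadenylated RNA. VCaP cells in DMEM received 40 nM and were sequenced from total RNA. RNA was taken at 72 h in both, and all groups, controls included, went through lipid transfection. FOXA1 is a forkhead transcription factor that opens chromatin in prostate epithelium. Line, dose, medium, library kit, strand use and the size of the fall in FOXA1 RNA, given below, change together. Their parts in any difference between PC3 and VCaP cannot be told apart.

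G1 is the stretch of the cell cycle in which a cell commits to copying its DNA. D-type cyclins activate the kinases CDK4 and CDK6, and E-type cyclins activate CDK2. These kinases phosphorylate the retinoblastoma protein, made from RB1, which otherwise holds E2F transcription factors in check. INK4 inhibitors (CDKN2A to CDKN2D) bind CDK4 and CDK6, while Cip/Kip inhibitors (CDKN1A to CDKN1C) bind cyclin-CDK complexes and restrain CDK2. All of these proteins are also controlled by degradation and phosphorylation, which RNA counts do not measure.

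PC3 libraries totalled 123140099 to 188226483 counts each, and VCaP libraries 48187047 to 59839211. FOXA1 measured 303, 244 and 266 CPM (a count scaled for library size and composition within a line) in PC3 NSI and 163, 182 and 162 CPM in PC3 siFOXA1, a log2 fold change of −0.68 (SE 0.10, edgeR adjusted p 0.0022). In VCaP it measured 458, 468 and 544 CPM under NSI against 85.2, 73.6 and 83.0 under siFOXA1, a log2 fold change of −2.60 (SE 0.09, edgeR adjusted p 1.84e-07). Epithelial markers (EPCAM, KRT8, KRT18 and CDH1) summed to 154.6 TPM (a level per unit of gene length, scaled to the same total in every library) or more in every library. Fibroblast markers (COL1A1, DCN, LUM and PDGFRB), of which at least 3 of 4 were under 1 TPM in every group, summed to 5.52 to 6.25 and 9.03 to 9.88 TPM in PC3 and to 2.32 to 4.22 and 0.198 to 0.476 TPM in VCaP, with NSI before siFOXA1. The sums moved with the siRNA, but the genes did not move together. In PC3 the sum was mostly COL1A1 (mean 5.50 against 9.10 TPM), while PDGFRB was lower with siFOXA1 (0.288 against 0.199). Under VCaP NSI it was mostly LUM (2.94 against 0.17 with siFOXA1). Mitochondrial genes held 3.02% to 3.29% of counts in VCaP NSI and 4.04% to 4.69% in VCaP siFOXA1, so their share moved with the VCaP groups. The part of these markers and of the mitochondrial share in the results was not tested.

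In PC3 1 of the 10 genes rose with siFOXA1 (CCND3), 2 fell (CDKN2B and CCND1) and 7 did not pass the test. A call here is an adjusted p under 0.05 in edgeR's quasi-likelihood test, and 27.7% of all 26478 genes tested in PC3 were called. In VCaP 2 rose (CDKN1A and CDKN2B), 4 fell (CDKN2C, CCND3, CCNE1 and CCNE2) and 4 did not pass, where 45.8% of 22939 genes tested were called. With a block for replicate number, the same 3 genes were called in PC3 against 42.8% of genes tested. That the numbers pair the PC3 libraries was taken from the data, not from the labels. Without siFOXA1 replicate 1, 2 of the 10 (CDKN2B and CCND3) were called against 14.7%. The share of the 10 called was read as no result about them in either line. The median log2 fold change of the 10 genes was −0.09 in PC3 and −0.17 in VCaP, against −0.01 and 0.02 over all genes tested. The test of the difference between the lines passed for 5 of the 10, against 22.1% of 30450 genes: CDKN1A and CDKN2B changed more upward in VCaP than in PC3, and CDKN2C, CCND3 and CCNE2 more downward.

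**Figure D1:**
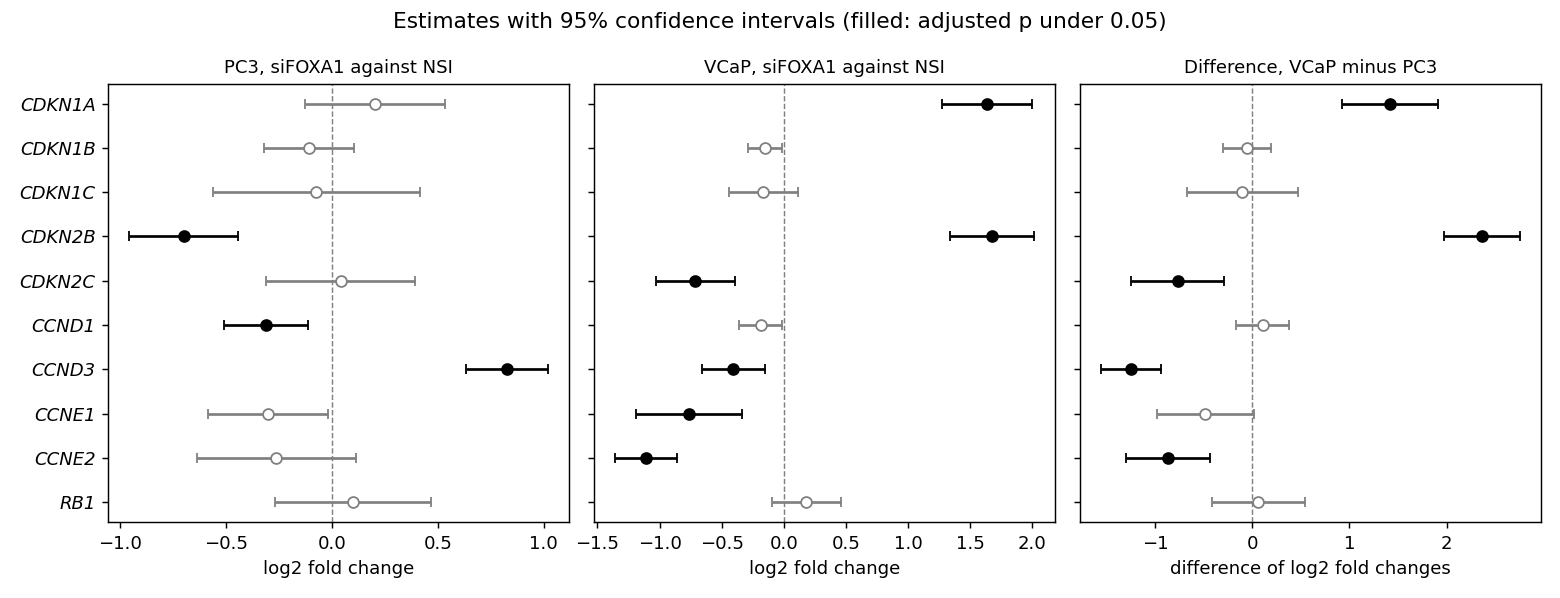
Log2 fold changes (x axis) of the 10 genes with siFOXA1 against NSI in PC3 and in VCaP, and the difference of the changes, VCaP minus PC3. Each panel has its own x range, points are edgeR estimates, bars are 95% confidence intervals and filled points passed the test. CDKN2B and CCND3 passed in opposite directions in the lines, and RB1, CDKN1B and CDKN1C passed in neither.

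CDKN1A rose in VCaP and did not pass the test in PC3. It encodes p21, an inhibitor of cyclin-CDK complexes and the best known transcriptional target of p53 (ENSG00000124762.13_2, chromosome 6, 36644237 to 36655116, plus strand, GRCh37). In VCaP it measured 42.9, 29.8 and 28.6 CPM under NSI against 116, 111 and 87.3 under siFOXA1. Every siFOXA1 library lay above every NSI library, and the mean rose 3.11-fold, from 33.8 ± 7.94 to 105 ± 15.4 CPM (SD, n = 3 each). The log2 fold change was 1.64 (SE 0.16, edgeR adjusted p 3.92e-05). In PC3 it measured 26.6, 19.6 and 30.2 CPM under NSI against 30.0, 28.8 and 29.1 under siFOXA1. These values overlapped, with a log2 fold change of 0.20 (95% confidence interval −0.13 to 0.53, edgeR adjusted p 0.33). The difference between the lines was 1.42 (SE 0.23, edgeR adjusted p 0.000362).

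CDKN1B encodes p27, an inhibitor of cyclin E-CDK2 whose amount is set largely by protein degradation (ENSG00000111276.10_3, chromosome 12, 12870058 to 12875305, plus strand). In PC3 its NSI libraries held 42.7, 40.05 and 47.1 CPM and its siFOXA1 libraries 40.2, 42.6 and 37.7 CPM, and the groups overlapped. In VCaP the values were 55.3, 57.8 and 54.1 CPM under NSI against 53.5, 49.4 and 47.7 under siFOXA1, with no overlap. The VCaP log2 fold change of −0.15 missed the threshold (95% confidence interval −0.29 to −0.01, edgeR adjusted p 0.0723). Without siFOXA1 replicate 1 it was −0.20 with an edgeR adjusted p of 0.0461. In PC3 the log2 fold change was −0.11 (edgeR adjusted p 0.421).

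CDKN1C, which encodes p57, a Cip/Kip inhibitor expressed from the maternal copy, was low in both lines (ENSG00000129757.13_3, chromosome 11, 2904443 to 2907003, minus strand). PC3 held 5.62, 6.98 and 5.64 CPM under NSI against 5.995, 7.44 and 3.93 under siFOXA1, where siFOXA1 replicate 3 was the lowest of the 6. VCaP held 2.50, 2.49 and 2.31 CPM under NSI against 2.24, 1.99 and 2.28 under siFOXA1, all siFOXA1 values lying just under the NSI values. The log2 fold changes were −0.07 in PC3 (95% confidence interval −0.56 to 0.42, edgeR adjusted p 0.825) and −0.16 in VCaP (−0.44 to 0.11, edgeR adjusted p 0.304).

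Per unit of length, the Cip/Kip family in VCaP NSI was mostly CDKN1B. CDKN1A held 43.6%, 34.0% and 34.6% of the summed TPM of the 3 genes in NSI and 68.5%, 69.3% and 64.5% in siFOXA1. The CDKN1B share went from 59.1% ± 5.17 to 30.7% ± 2.25 (SD, n = 3 each) as the leading gene of the family changed. In PC3 the CDKN1A share was 34.1% ± 3.97 in NSI and 39.3% ± 2.52 in siFOXA1, and CDKN1B stayed the largest in each library. No test was run on these shares.

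**Figure D2:**
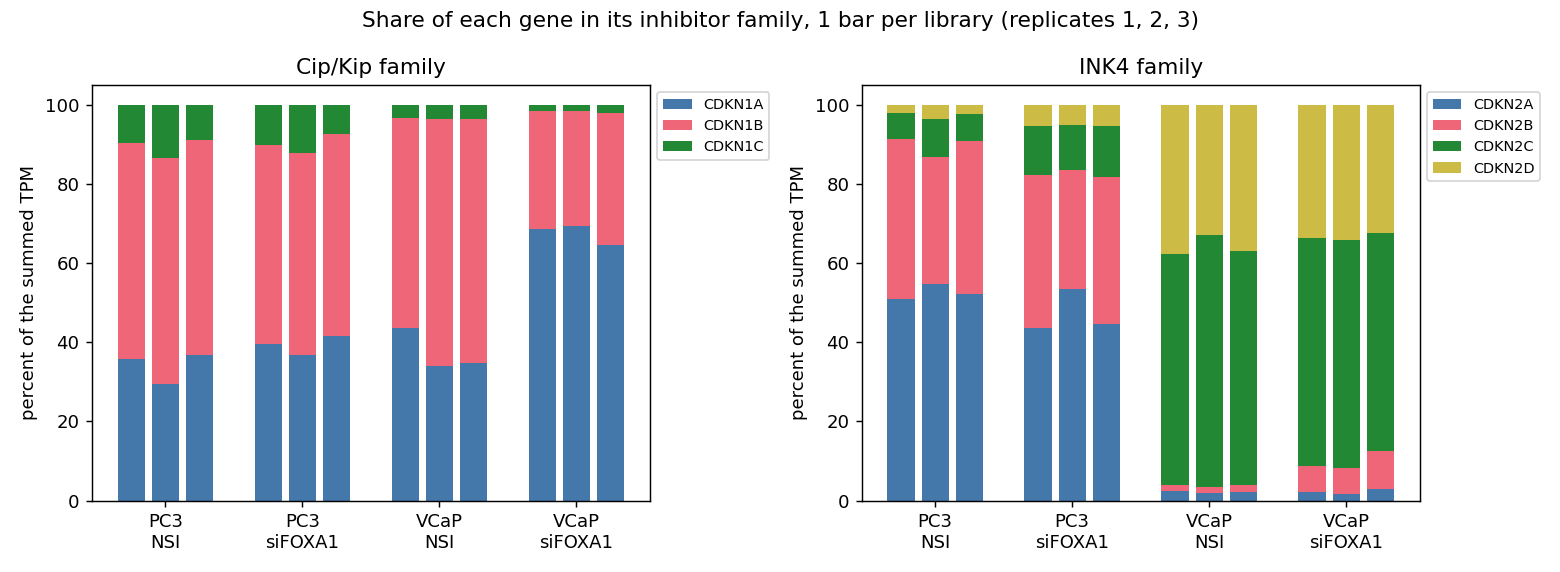
Share of each gene in the summed TPM of its inhibitor family (y axis, percent), 1 stacked bar per library in the order of replicates 1, 2 and 3. CDKN1A took 64.5% to 69.3% of the Cip/Kip family in VCaP siFOXA1, and CDKN2A with CDKN2B made up most of the INK4 family in PC3 but not in VCaP.

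CDKN2B moved in opposite directions in the lines. It encodes p15, an INK4 inhibitor known as a target of TGF-beta signalling (ENSG00000147883.10_2, chromosome 9, 22002902 to 22009362, minus strand). In PC3 it measured 341, 266 and 335 CPM under NSI against 201, 199.6 and 180.0 under siFOXA1. No libraries overlapped, and the group mean dropped from 314 ± 41.5 to 193 ± 11.6 CPM (SD, n = 3 each), which is a log2 fold change of −0.70 (SE 0.11, edgeR adjusted p 0.00283). In VCaP it was near the bottom of the tested range, at 0.751, 0.737 and 0.851 CPM under NSI against 2.66, 2.25 and 2.61 under siFOXA1. The siFOXA1 libraries were all higher, at a mean 3.21-fold that of NSI and a log2 fold change of 1.68 (SE 0.15, edgeR adjusted p 1.99e-05), but the counts behind it were only 37 to 137 per library. The difference between the lines was 2.36 (SE 0.18, edgeR adjusted p 3.03e-07).

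CDKN2C encodes p18, another INK4 inhibitor (ENSG00000123080.10_2, chromosome 1, 51426417 to 51440305, plus strand). In VCaP it fell from 24.9, 27.3 and 25.3 CPM in NSI to 19.3, 15.9 and 12.1 CPM in siFOXA1, with no overlap. The mean was 25.8 ± 1.28 against 15.8 ± 3.62 CPM (SD, n = 3 each), and the log2 fold change −0.71 (SE 0.14, edgeR adjusted p 0.00285). In PC3 it measured 45.5, 67.4 and 48.4 CPM under NSI against 52.4, 62.0 and 51.7 under siFOXA1, with replicate 2 highest in each group and a log2 fold change of 0.04 (95% confidence interval −0.31 to 0.39, edgeR adjusted p 0.862). The difference between the lines was −0.77 (SE 0.22, edgeR adjusted p 0.0222). It missed the threshold without VCaP NSI replicate 2 (−0.73, edgeR adjusted p 0.0562) and without VCaP siFOXA1 replicate 3 (−0.61, edgeR adjusted p 0.0553).

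The INK4 family differed in make-up between the lines before any knockdown. In PC3 NSI CDKN2A, the gene of p16 and p14ARF, held 52.7% ± 1.97 of the summed TPM of the 4 genes and CDKN2B 36.9% ± 4.45 (SD, n = 3 each). In VCaP NSI CDKN2C held 60.4% ± 2.83 and CDKN2D 35.9% ± 2.51, and CDKN2B only 1.502% ± 0.12. CDKN2B reached 6.54%, 6.67% and 9.77% in the VCaP siFOXA1 libraries. Of 3 other CDK inhibitor genes, CDKN2A and CDKN3, a phosphatase acting on CDK2, fell in both lines. In PC3 2 of the 3 were called lower and in VCaP all 3, where 13.9% and 23.3% of all genes tested were called lower. CDKN2A changed by −0.75 in PC3 and −0.65 in VCaP on the log2 scale (edgeR adjusted p 0.0151 and 0.0286) and CDKN3 by −0.92 and −1.17 (edgeR adjusted p 0.000954 and 4.11e-05). The CDKN2A change no longer passed in PC3 without NSI replicate 3 or siFOXA1 replicate 1 or 3 (edgeR adjusted p up to 0.0793) and in VCaP, where it rested on 22.1 to 53 counts per library, without NSI replicate 1 or 3 or siFOXA1 replicate 2 or 3 (up to 0.114). The VCaP call of CDKN2A was also lost with DESeq2 (DESeq2 adjusted p 0.0933) and in the fit over all 12 libraries (edgeR adjusted p 0.102). CDKN2D fell in VCaP, by 0.73 on the log2 scale (edgeR adjusted p 0.00398).

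Start-site sequences are shown for the inhibitor genes whose RNA changed in VCaP, taken from RefSeq (GRCh38.p14, a different build from the count tables). Promoter windows of 250 bases before to 50 after the start were found for 7 of the 10 genes, with 11 start sites among them; none are shown for CCND1, CDKN1C and CCNE2. Only the windows of CCNE1, CDKN1B and CDKN2B and the first CDKN2C window hold the first base of the gene in RefSeq. Those of CDKN1A, CCND3 and RB1 and the other CDKN2C windows lie at start sites further inside the gene. The single RB1 window, chr13:48476200-48476499, lies inside the gene, which RefSeq places from 48303751 to 48481890. GC boxes, the letters GGGCGG on either strand, are the sites of Sp1-family factors, through which CDKN1A and CDKN2B are known to be transcribed. They occur in 8 of the 11 windows and in 45.0% of 35116 RefSeq windows. They are in capitals in the first pair of sequences, which end at the base before the start and read 5′ to 3′ on the gene's strand. The CDKN1A stretch is chr6:36678594-36678713 on the plus strand, with 4 matches, and the CDKN2B stretch is chr9:22009306-22009445 on the minus strand, with 2.
CDKN1A: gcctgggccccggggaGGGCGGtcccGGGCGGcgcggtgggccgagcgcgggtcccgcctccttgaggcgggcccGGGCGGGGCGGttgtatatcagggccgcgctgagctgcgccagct
CDKN2B: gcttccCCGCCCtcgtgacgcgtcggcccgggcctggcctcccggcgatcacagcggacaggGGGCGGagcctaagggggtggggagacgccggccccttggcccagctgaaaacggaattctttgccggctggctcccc
A forkhead-like heptamer, TNTTTAC on either strand, occurs in 2 of the 11 windows, one of CDKN2C and one of CCND3, and in 10.8% of all windows. The CDKN2C stretch that holds it, in capitals, is chr1:50970125-50970244 on the plus strand. That stretch lies inside the gene, whose first base RefSeq places at 50960745.
CDKN2C: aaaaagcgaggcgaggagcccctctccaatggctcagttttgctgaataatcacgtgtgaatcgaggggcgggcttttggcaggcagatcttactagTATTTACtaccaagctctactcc
The E2F-like letters TTTNNCGC, searched on both strands, occur in none of the 11 windows and in 6.89% of all windows. For CDKN1A, CCND3 and RB1 the search covered only windows inside the gene. A match is only a run of letters, and none of these data show a factor bound there.

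CCND1 had the highest per-length level of the 10 genes in every group, and its changes were small. It encodes cyclin D1, the partner of CDK4 and CDK6 (ENSG00000110092.3_2, chromosome 11, 69455855 to 69469242, plus strand). PC3 held 429, 388 and 394 CPM under NSI against 345, 311 and 320 under siFOXA1, without overlap. The mean went from 404 ± 22.3 to 326 ± 17.6 CPM (SD, n = 3 each), which is a log2 fold change of −0.31 (SE 0.09, edgeR adjusted p 0.0284). This call was lost on leaving out NSI replicate 1 or 3 or siFOXA1 replicate 1, 2 or 3 (edgeR adjusted p 0.0758 to 0.111), and when libraries were scaled by their totals alone (−0.22, edgeR adjusted p 0.0911) or by upper quartiles (−0.25, edgeR adjusted p 0.0674). VCaP held 459, 484 and 492 CPM under NSI against 450, 426 and 386 under siFOXA1, also without overlap, but the log2 fold change of −0.18 missed the threshold (95% confidence interval −0.36 to −0.01, edgeR adjusted p 0.0792). The test of the difference between the lines was not passed (0.11, 95% confidence interval −0.16 to 0.38, edgeR adjusted p 0.611). Of the CCND1 exons, 11.3% overlap ORAOV1 on the opposite strand, and PC3 counts ignored strand. ORAOV1 itself had log2 fold changes of −0.32 in PC3 (edgeR adjusted p 0.0414) and −0.24 in VCaP (edgeR adjusted p 0.0262), neither of which passed with any one of 5 libraries of its line left out.

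CCND3 rose in PC3 and fell in VCaP. It encodes cyclin D3, which pairs with the same kinases as cyclin D1 (ENSG00000112576.12_3, chromosome 6, 41902671 to 42018095, minus strand). PC3 held 19.3, 21.4 and 20.6 CPM under NSI against 35.4, 35.5 and 37.9 under siFOXA1, each siFOXA1 library far above each NSI library. The mean rose 1.77-fold, from 20.4 ± 1.05 to 36.3 ± 1.40 CPM (SD, n = 3 each), which is a log2 fold change of 0.83 (SE 0.08, edgeR adjusted p 0.000273). VCaP held 12.7, 9.80 and 10.3 CPM under NSI against 8.77, 8.45 and 7.62 under siFOXA1, without overlap. There the log2 fold change was −0.40 (SE 0.11, edgeR adjusted p 0.0169), and the difference between the lines was −1.25 (SE 0.14, edgeR adjusted p 1.42e-05).

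Among the D cyclins CCND1 dominated. The CCND3 share of the summed TPM of CCND1, CCND2 and CCND3 went from 4.79%, 5.81% and 5.51% in PC3 NSI to 10.3%, 11.3% and 11.7% in PC3 siFOXA1. In VCaP it was 2.50% ± 0.440 in NSI and 2.15% ± 0.017 in siFOXA1 (SD, n = 3 each). CCND2, the other D cyclin gene, was close to undetected: it had 22, 18 and 33 counts under NSI against 8, 0 and 5 under siFOXA1 in PC3, and 3.5, 3 and 1.5 against 37, 55.5 and 39.3 in VCaP. Both changes passed the test (edgeR adjusted p 0.0197 in PC3 and 2.52e-05 in VCaP), the PC3 one downward and the VCaP one upward, and the PC3 change no longer passed on leaving out either NSI replicate 3 or siFOXA1 replicate 3 (edgeR adjusted p 0.0705 and 0.0619). CCND2 made up at most 0.172% of D cyclin TPM in any library.

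**Figure D3:**
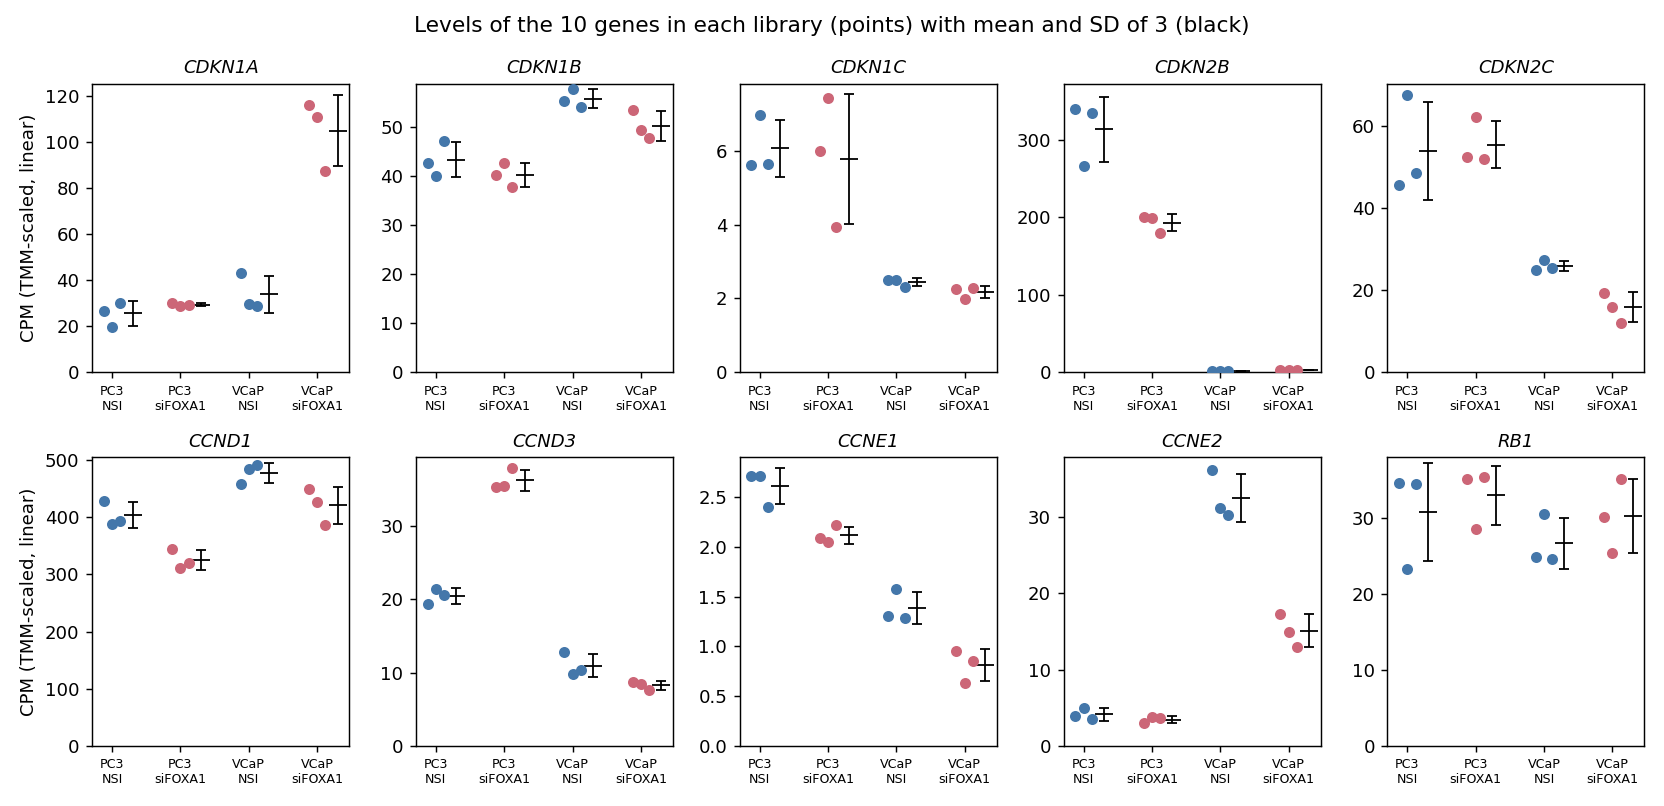
CPM (y axis, linear and from 0) of each gene in each of the 12 libraries, as points, with the mean and SD of 3 libraries in black beside them. CDKN1A in VCaP (28.6 to 42.9 against 87.3 to 116 CPM) and CCND3 in PC3 (19.3 to 21.4 against 35.4 to 37.9 CPM) show wide gaps between the groups, while the RB1 points of NSI and siFOXA1 overlap in both lines.

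The E cyclin genes both fell in VCaP. CCNE2 encodes cyclin E2, an activator of CDK2 at the entry to S phase (ENSG00000175305.17_3, chromosome 8, 95891998 to 95908906, minus strand). VCaP held 36.2, 31.2 and 30.3 CPM of it in NSI and 17.3, 14.97 and 13.003 CPM in siFOXA1, with no overlap. The group mean dropped from 32.5 ± 3.20 to 15.1 ± 2.16 CPM (SD, n = 3 each), to 46.4% of NSI, a log2 fold change of −1.11 (SE 0.11, edgeR adjusted p 4.11e-05). PC3 held 3.89, 5.01 and 3.46 CPM under NSI against 2.96, 3.74 and 3.62 under siFOXA1, which overlapped (log2 fold change −0.26, 95% confidence interval −0.64 to 0.12, edgeR adjusted p 0.271). The difference between the lines was −0.86 (SE 0.20, edgeR adjusted p 0.00593). CCNE2 shares 47.5% of its exon length with INTS8 on the opposite strand. Since PC3 counts ignored strand, the PC3 values of CCNE2, and so the difference between the lines, are uncertain. INTS8 measured 46.1 CPM in PC3 NSI, and its log2 fold change there was −0.24 (edgeR adjusted p 0.0527, and 0.0132 with the replicate block).

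CCNE1 encodes cyclin E1 (ENSG00000105173.13_4, chromosome 19, 30302805 to 30315215, plus strand). VCaP held 1.31, 1.57 and 1.29 CPM under NSI against 0.953, 0.636 and 0.857 under siFOXA1, with no overlap, on 31.5 to 79 counts per library. The log2 fold change was −0.76 (SE 0.19, edgeR adjusted p 0.00893). PC3 held 2.72, 2.72 and 2.40 CPM under NSI against 2.09, 2.05 and 2.22 under siFOXA1, also with no overlap, but the log2 fold change of −0.30 missed the threshold (95% confidence interval −0.58 to −0.02, edgeR adjusted p 0.103). The test of the difference between the lines was not passed (−0.48, 95% confidence interval −0.98 to 0.02, edgeR adjusted p 0.171). In VCaP CCNE2 held 93.4% ± 1.03 of the E cyclin TPM in NSI and 91.8% ± 1.67 in siFOXA1, while in PC3 NSI it held 48.6% ± 3.64 (SD, n = 3 each). The PC3 share is uncertain, since it rests on the PC3 counts of CCNE2, which ignored strand over the INTS8 overlap.

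RB1, the gene of the retinoblastoma protein, passed the test in neither line (ENSG00000139687.14_3, chromosome 13, 48877862 to 49056026, plus strand). PC3 held 34.7, 23.4 and 34.6 CPM under NSI against 35.2, 28.6 and 35.4 under siFOXA1, with replicate 2 lowest in each group. VCaP held 24.9, 30.6 and 24.7 CPM under NSI against 30.1, 25.5 and 35.2 under siFOXA1, and the groups overlapped in both lines. The log2 fold changes were 0.10 in PC3 (95% confidence interval −0.27 to 0.47, edgeR adjusted p 0.679) and 0.18 in VCaP (−0.10 to 0.46, edgeR adjusted p 0.261). Over all 10 genes, 4 had no overlap between the groups in PC3 and 9 in VCaP, where 45.1% and 55.9% of all genes tested had none.

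On the per-length scale the order of the 10 genes differed between the lines. In PC3 NSI, CCND1 led at 162 ± 7.76 TPM, followed by CDKN2B at 138 ± 19.6 TPM (SD, n = 3 each). CDKN1B at 28.8 and CDKN2C at 28.6 TPM came next with overlapping ranges, then CDKN1A at 18.0, RB1 at 10.9 and CCND3 at 9.16 TPM, of which RB1 and CCND3 overlapped. CDKN1C at 5.52 TPM stood above CCNE1 and CCNE2, which overlapped at 2.22 and 2.12 TPM. The PC3 level of CCNE2 is uncertain because of its overlap with INTS8, as given above. In VCaP NSI, CCND1 at 91.2 ± 9.10 TPM was followed by CDKN1B at 17.7 and CDKN1A at 11.3 TPM. CDKN1A overlapped CCNE2 at 7.98 TPM, which overlapped CDKN2C at 6.55 TPM. RB1 at 4.53, CCND3 at 2.33, CDKN1C at 1.06, CCNE1 at 0.565 and CDKN2B at 0.162 TPM followed without overlap. With siFOXA1, CCND3 ranked above RB1 in PC3 without overlap. CDKN2C ranked above CDKN1B there, but the ranges all but met, with the lowest CDKN2C library at 30.47 TPM and the highest CDKN1B library at 30.46 TPM. In VCaP siFOXA1, CDKN1A ranked above CDKN1B and CDKN2B above CCNE1 without overlap. RB1 came before CDKN2C and CCNE2 there, but the ranges of RB1, CDKN2C and CCNE2 overlapped one another. TPM values were not tested between lines, whose library kits count different RNAs.

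**Figure D4:**
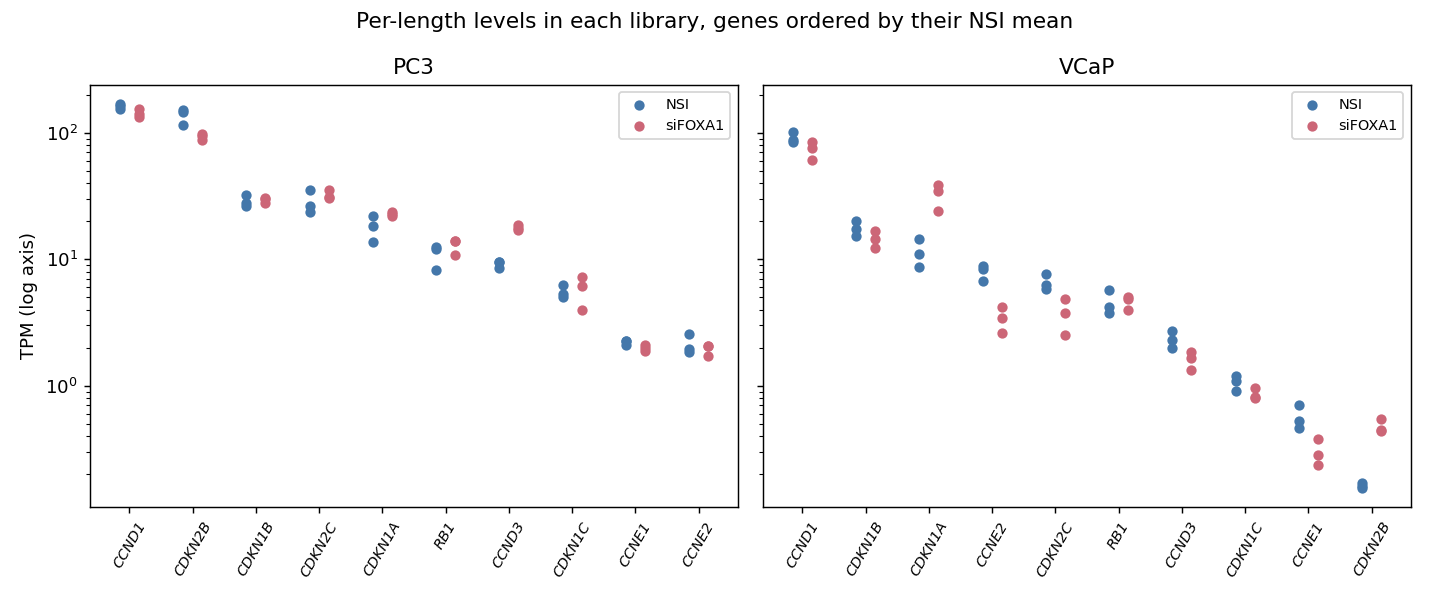
TPM (y axis, log scale) of the 10 genes in each library of PC3 and VCaP, ordered by the NSI mean of the line; blue points are NSI and red points siFOXA1. CDKN2B stands second at 138 TPM in PC3 NSI and last at 0.162 TPM in VCaP NSI.

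Genes around the 10 were followed through 7 lists. Among 10 other cyclins and kinases of G1 and S, 6 fell and none rose in PC3, and 5 of 9 tested fell and 1 rose (CCND2) in VCaP, where 13.9% and 23.3% of all genes tested were called lower. The PC3 count was 3 with libraries scaled by their totals alone and 2 to 5 with single libraries left out, 2 without NSI replicate 3 or siFOXA1 replicate 1 or 3. Scaling by totals alone called 9.68% of all PC3 genes lower, and leaving out single libraries 5.64% to 13%. The list medians were −0.33 and −0.37 on the log2 scale. CCNA2, the S-phase cyclin that follows cyclin E, fell by 0.83 in PC3 and by 1.11 in VCaP (edgeR adjusted p 0.000309 and 9.03e-05). CCNH, the cyclin of the CDK-activating kinase, fell by 0.38 and 0.39 (edgeR adjusted p 0.0135 and 0.00137), the PC3 call being lost without NSI replicate 3 or siFOXA1 replicate 1 (up to 0.113). CDK2, the partner of cyclin E, fell by 0.90 in VCaP (edgeR adjusted p 7.59e-06).

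The E2F target genes of DNA replication lie downstream of the pocket proteins. All 16 fell in VCaP, with a median log2 fold change of −0.75, where 23.3% of all genes tested were called lower. In the fit over all 12 libraries 14 of the 16 were called lower in VCaP, where 13.1% of all genes tested were. RRM2, a subunit of ribonucleotide reductase, went from 122.9 to 25.2 CPM (log2 fold change −2.29, edgeR adjusted p 6.69e-07). TYMS, thymidylate synthase, changed by −1.35 and MCM2, of the replicative helicase, by −0.99 (edgeR adjusted p 8.43e-07 and 8.49e-06). In PC3 2 of the 16 fell, MCM7 by 0.55 and MCM6 by 0.29 (edgeR adjusted p 0.034 and 0.0418), with a list median of −0.30, where 13.9% of all genes were called lower. With single PC3 libraries left out, 1 of the 16 was called lower without NSI replicate 1 or siFOXA1 replicate 2, 1 higher (MCM5) without NSI replicate 2, and 0 without the others, and 0 with library totals alone. The block for replicate number called 10 lower, and it called 23.1% of all genes lower. The test of the difference between the lines was passed by 9 of the 16, all more downward in VCaP, where 11.1% of all genes tested were called in that direction.

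Among 12 pocket protein and E2F or DP genes, 1 rose and 4 fell in PC3 and 2 rose and 6 fell in VCaP, with medians of −0.07 and −0.25. Of all genes tested, 13.9% were called higher and 13.9% lower in PC3, and 22.5% higher and 23.3% lower in VCaP. The PC3 split turned to 3 higher (E2F7, E2F8 and RBL1) and 1 lower (E2F3) with library totals alone, and was 3 higher and 4 lower with upper quartiles. E2F8, a repressing E2F, rose from 3.49 to 11.5 CPM in PC3 (log2 fold change 1.72, edgeR adjusted p 4.26e-05) and fell from 18.3 to 11.3 CPM in VCaP (−0.70, edgeR adjusted p 0.000691). The E2F8 difference between the lines was −2.43 (edgeR adjusted p 1.58e-07). E2F2, an activating E2F, changed by −1.29 in VCaP, E2F7 by −0.76 and E2F1 by −0.54 (edgeR adjusted p 5.91e-06, 0.000119 and 0.000246), while RBL2, the gene of the pocket protein p130, rose by 0.26 (edgeR adjusted p 0.00775). In PC3, E2F3 fell by 0.55 (edgeR adjusted p 0.00752). E2F5 fell by 0.36 in PC3 and rose by 0.26 in VCaP (edgeR adjusted p 0.0184 and 0.0397), and each call was lost without any one of 4 libraries of its line (up to 0.113 and 0.161). With the replicate block, 4 of these genes were called higher and 6 lower in PC3, where it called 19.7% of all genes higher and 23.1% lower. When a single PC3 library was left out 2 to 6 were called, beside 14.7% to 27.9% of all genes tested.

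Of 7 genes of the MuvB complex, B-MYB and FOXM1, which act with or after E2F, 2 fell in PC3 and 6 in VCaP and none rose (medians 0.02 and −0.49), beside 13.9% and 23.3% of all genes called lower. With library totals alone LIN52, a MuvB subunit, was called higher in PC3. The PC3 falls were FOXM1 (−0.68, edgeR adjusted p 0.00066) and MYBL2 (−0.82, edgeR adjusted p 0.0111, but 0.0688 without siFOXA1 replicate 1). Both were also lower in VCaP, by −1.06 and −1.13 (edgeR adjusted p 1.16e-05 and 7.28e-05), together with RBBP4 (−0.62, edgeR adjusted p 7.19e-05). Of 11 ubiquitin ligase genes that act on G1 cyclins and CDK inhibitors, 2 fell in PC3 and 3 fell and 2 rose in VCaP (medians −0.15 and 0.08). The 5 called in VCaP stand beside 45.8% of all genes, and the 2 in PC3 beside 27.7%. The PC3 direction turned with scaling, to 2 higher (AMBRA1 and SKP2) and 0 lower with library totals alone and 1 in each direction with upper quartiles. CKS1B, which helps SKP2 recognise p27, fell by 0.42 in PC3 and by 1.00 in VCaP (edgeR adjusted p 0.0211 and 4.46e-06), and DTL, which directs p21 to degradation in S phase, fell by 0.89 in VCaP (edgeR adjusted p 1.73e-05). FBXW7, which directs cyclin E to degradation, rose by 0.34 in VCaP (edgeR adjusted p 0.00253). FBXO31, reported to act on cyclin D1, changed by −0.29 in PC3 and 0.35 in VCaP (edgeR adjusted p 0.0258 and 0.0127). In PC3 the CKS1B call was lost without NSI replicate 2 or 3 or siFOXA1 replicate 1 or 3 (up to 0.136) and that of FBXO31 without any library but NSI replicate 2 (up to 0.159), and in VCaP that of FBXO31 without siFOXA1 replicate 2 (0.0548). With the replicate block, 2 ligase genes were called higher and 5 lower in PC3, where it called 19.7% of all genes higher and 23.1% lower.

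CDKN1A is often read with other p53 targets, although PC3 is known to lack p53. Of 15 such genes other than CDKN1A, 2 rose and 5 fell in PC3 and 7 rose and 4 fell in VCaP, with medians of −0.28 and 0.17. Of all genes tested, 13.9% were called in each direction in PC3, and 22.5% higher and 23.3% lower in VCaP. FAS, a death receptor, rose in both lines, by 1.20 in PC3 and 1.18 in VCaP (edgeR adjusted p 7.93e-05 and 2.8e-06). ZMAT3, an RNA-binding protein, rose by 0.90 in VCaP, and SESN2, a stress-induced inhibitor of mTORC1, by 0.95 (edgeR adjusted p 7.87e-06 and 0.00011). MDM2, the ligase that degrades p53, fell by 0.38 in PC3 and 0.39 in VCaP (edgeR adjusted p 0.0333 and 0.00347), and SESN1 fell by 0.62 in VCaP (edgeR adjusted p 2.6e-05). GDF15, a secreted stress factor, fell by 1.17 in PC3 and rose by 0.47 in VCaP (edgeR adjusted p 0.00261 and 0.00164). SESN2 fell by 0.32 in PC3 (edgeR adjusted p 0.0172). The PC3 calls of MDM2, without any library but NSI replicate 2, and of SESN2, without NSI replicate 3 or siFOXA1 replicate 1 or 3, were lost (up to 0.116 and 0.134). With the replicate block, 4 of the 15 were called higher and 8 lower in PC3, where it called 19.7% of all genes higher and 23.1% lower. When a single PC3 library was left out 3 to 9 were called, beside 14.7% to 27.9% of all genes tested.

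**Figure D5:**
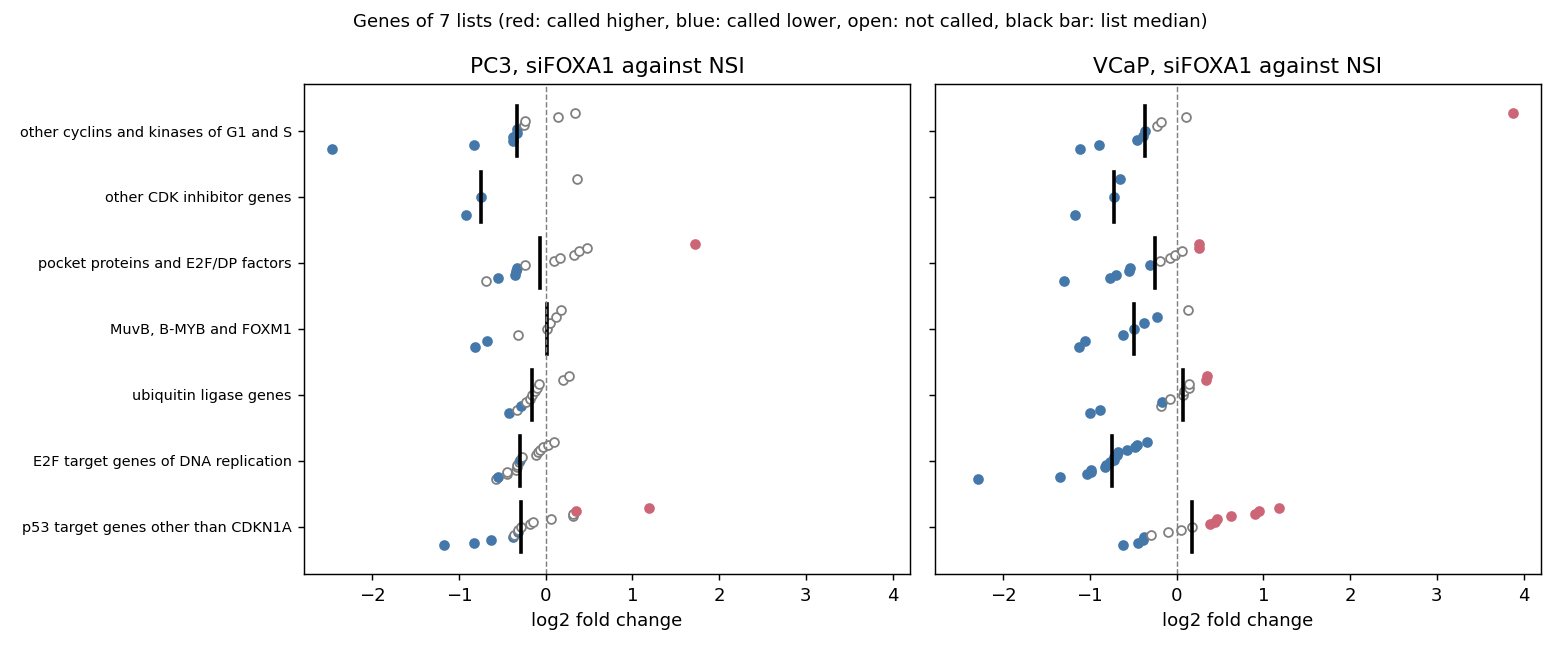
Log2 fold change (x axis) of each gene of the 7 lists in PC3 and in VCaP, with genes called higher in red, lower in blue and not called open, and the list median as a black bar. All 16 E2F target genes lie left of 0 in VCaP (median −0.75), against a PC3 median of −0.30, and CCND2 lies alone at the far right in VCaP.

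The genes nearest in pattern to 3 of the 10 were found by the root mean square difference of log2 CPM over the 12 libraries, after the mean of each line was subtracted, among 19281 genes. For CCND1 they were PPP4R2, POC5 and XPNPEP3, at 0.049, 0.053 and 0.054, where the median gene stood at 0.28. For CDKN1B they were RP11-517H2.6, C11orf58 and NDFIP2, at 0.037, 0.043 and 0.051 against a median of 0.27. For RB1 they included UBXN7 and FCHO2, at 0.079 and 0.081 against a median of 0.34. CCND1, CDKN1B and RB1 themselves varied about their line means by 0.14, 0.10 and 0.21 on this scale.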

How the data were processed

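Gene counts of 12 libraries were used, 3 per line and siRNA, with groups and replicate numbers from the sample titles. The authors deposited estimated counts per gene (expected counts, not normalized): per the file headers, featureCounts summed exons by gene of GENCODE v28lift37 basic on GRCh37, counted fragments with both ends mapped, split those with several mapped places or overlapping genes, ignored strand in PC3 and used reverse strand in VCaP. The submitters' processing notes name STAR 2.7.3a and Subread 2.0.0. Dividing fragments leaves counts of overlapping genes mixed where strand was ignored.

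Counts were rounded to whole numbers, with a decimal part of 0.5 going upward. Each line was fitted on its 6 libraries in edgeR 4.0.16 (R 4.3.3) with filterByExpr, TMM factors and a two-sided quasi-likelihood test, with Benjamini-Hochberg adjustment over all genes tested and a call at an adjusted p under 0.05. The difference between the lines is an interaction term fitted to the 12 libraries together, so it need not equal the difference of the separate estimates. The script was tested on simulated data. TPM came from the counts and the exon length in the tables. The labels do not say that replicates were separate cultures, so p-values measure the spread between these libraries, which may be technical. Counts of at most 10.2 per library kept RP3-431A14.6, which overlaps 1.28% of CDKN1A exons, out of the test.

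Same-numbered PC3 libraries deviated together from their group means (r across genes averaging 5 CPM or more 0.66, 0.72 and 0.30, and 0.15, 0.31 and 0.095 over all genes tested), so PC3 numbers were taken as pairing the libraries. In VCaP the values were 0.18, −0.05 and 0.41, and the numbers were not taken as pairing, although the third VCaP value exceeded the third PC3 value. The labels do not say what a number shares. The main PC3 fit and the fit of the difference held no term for replicate number. Their PC3 standard errors, intervals and p-values therefore leave the pairing out. The block, run as an alternative, called 11333 genes in PC3 against 7344 in the main fit.

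The 10 genes, the lists and the rules were chosen with earlier results of these data known. Genes named were the 10, FOXA1, in each list and line up to 3 called higher and 3 lower with the smallest adjusted p, genes overlapping at least 1% of a member's exons, and the nearest 3 in pattern to CCND1, CDKN1B and RB1. Some genes and marker lists that these rules took are not reported here. Alternatives were other scalings, no filter, DESeq2 1.42.0, a replicate block, truncated counts, each library left out, other sets of libraries or genes, and CPM per kilobase in place of TPM; rounding 0.5 to the even number was added after seeing the data. Endothelial markers (VWF and CDH5) summed to at most 0.479 TPM in any library, and ERG to 27.6 TPM or more in VCaP and at most 0.026 TPM in PC3.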

Additional observations from a re-analysis of the deposited data

Results flagged for a closer look

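The siFOXA1 effect differed between PC3 and VCaP by the interaction test for 5 of the 10 genes, against 22.1% of 30450 genes tested. With only genes passing the filter in each line, 34.9% of 19282 genes were called. The share of the 10 was read as no result about them. The log2 fold change in VCaP minus that in PC3 was 2.36 for CDKN2B, 1.42 for CDKN1A, −1.25 for CCND3, −0.86 for CCNE2 and −0.77 for CDKN2C (edgeR adjusted p 3.03e-07, 0.000362, 1.42e-05, 0.00593 and 0.0222). For FOXA1 itself it was −1.94 (edgeR adjusted p 2.98e-07). Dose, medium, kit, strand use and the size of the fall in FOXA1 RNA cannot be told apart from the line in these values. The CCNE2 difference is also uncertain, since PC3 counts ignored strand where CCNE2 overlaps INTS8.

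The difference is also given for genes of the lists that were called in opposite directions in the lines. These were picked by their calls in the same libraries. That choice largely fixed the outcome of the test of the difference, which adds no support. The difference was −2.43 for E2F8, 1.62 for GDF15, 1.26 for SESN2, 0.62 for FBXO31 and 0.60 for E2F5 (edgeR adjusted p 1.58e-07, 5.48e-05, 4.98e-06, 0.0018 and 0.00387). For CCND2 the fitted difference was 6.32 (edgeR adjusted p 1.23e-05), but this value rests on 0 to 55.5 counts per library, depends on the prior count and is no bound.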

How the results depend on the processing

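All member calls in VCaP, and those of CDKN2B and CCND3 in PC3, kept their direction and side of the threshold under each of 15 alternatives per line. CCND1 in PC3 lost its call in 7 of 15, and the CDKN2C difference between the lines in 2 of 21, as given above; the cause was not tested. Signs of uncalled members turned as follows. CDKN1C in PC3 was 0.014 with library totals alone and ran from −0.29 to 0.15 with single libraries left out, CDKN2C from −0.052 to 0.28 and RB1 from −0.022 to 0.21. The RB1 difference between the lines was −0.033 with library totals alone and ran from −0.11 to 0.19 with single libraries left out, that of CDKN1C from −0.35 to 0.030 and that of CCND1 from −0.0045 to 0.17. The count of genes called in PC3 was 11333 with the replicate block, and ran from 3963 (without siFOXA1 replicate 1) to 7628 with single libraries left out, 4738 without NSI replicate 3. The share of PC3 calls that were higher was 50.04%, but 64.3% with library totals alone, 61.5% without siFOXA1 replicate 1; the share of differences that were positive was 50.1% and 40.5% with library totals alone. PC3 list counts moved with the processing. With single libraries left out they ran from 0 to 1 for E2F targets, 2 to 5 for other cyclins and kinases, 1 to 3 for other inhibitors, 1 to 3 for MuvB, B-MYB and FOXM1, 2 to 6 for pocket and E2F genes, 0 to 2 for ligase genes and 3 to 9 for p53 targets, and in VCaP from 3 to 5 for ligase genes. E2F targets called numbered 1 with DESeq2 size factors, upper quartiles or 0.5 rounded to even and 0 with library totals alone. Other cyclins and kinases numbered 3 with library totals alone, ligase genes 1 without the filter and 4 in the fit over all 12 libraries, and pocket and E2F genes 8 with DESeq2 and 8 in that fit. With the replicate block, pocket and E2F genes numbered 10, ligase genes 7, E2F targets 10 and p53 targets 12. The block called 42.8% of all PC3 genes tested, DESeq2 31.7% and the fit over all 12 libraries 29.9%. Library totals alone called 27.1%, the fit without the filter 16.2% and fits with a single library left out 14.7% to 27.9%. Leaving out single VCaP libraries called 37.2% to 42.2% of genes there. The block changed no call of the 10 genes. Among genes named, in PC3 it added calls for CDKN2D, E2F1, E2F7, RBL1, AMBRA1 and SKP2 (higher) and for CDK6, E2F2, DTL, RRM2, TYMS, ZMAT3, SESN1, INTS8, POC5 and XPNPEP3 (lower), at edgeR adjusted p 0.00111 to 0.0433; in VCaP it added UBXN7 (higher) and took SKP2, and it added MCM7 to the differences between the lines. TPM ranks of all 10 were the same as CPM per kilobase ranks in each group. Within a library these scales differ only by a constant factor, so equal ranks were all but fixed by arithmetic and are no check.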
